A study of Homo sapiens with 6 samples.

Results

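The genes described here are 55 genes that copy the genome or carry cells from G1 into S phase, picked by symbol from the 32692 genes of the deposited table. They cover origin licensing, the replicative helicase, the DNA polymerases, the sliding clamp and its loader, nucleotide supply, chromatin behind the fork, cyclin E with CDK2, and the E2F factors. All 55 were found, each on 1 row, and 54 averaged 1 or more across the 6 libraries and were tested. RNA came from DU145, an established cell line from a human prostate carcinoma that is known to make a truncated RB protein. The OTI-611 group (3 libraries) was given 5 µM of that compound, for which the labels give a code name only, and its control group (3 libraries) was given DMSO, the solvent, alone, in each case for 24 h. Both groups are the same unmodified line, the series title names the chromatin remodeller CHD1L as the target, and the labels do not say whether the libraries came from separate cultures, so each p-value measures only the spread between these libraries, which may be technical.

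Before S phase, the origin recognition complex, CDC6 and CDT1 load the ring-shaped MCM helicase onto DNA at origins, a step called licensing, and geminin blocks a second round by binding CDT1. CDC45 and the GINS complex then join the ring and switch it on, and polymerases, the PCNA clamp and single-strand binding proteins follow it along the fork. Most of these genes are known targets of the E2F transcription factors, which RB holds in check until cyclin-dependent kinases release them.

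Values in 5 libraries behave as RPKM, which divides reads by the length of the gene and the depth of the library. DMSO 1 was deposited in whole numbers and is taken as RPKM with the decimals cut off. Its mean difference from the other DMSO libraries was -0.509 to -0.533 in bands of genes between 1 and 50 RPKM and -0.918 between 50 and 200 RPKM. Depth, estimated from the steps in low values, was 37.3 to 37.7 M reads per OTI-611 library and 30.6 and 32.3 M reads in DMSO 2 and DMSO 3, with none obtained for DMSO 1. The epithelial markers KRT8, KRT18, EPCAM and CDH1 were above 1 RPKM in every library, the prostate marker KLK3 reached at most 0.0595, and the 10 blood, endothelial and stromal markers looked up reached at most 0.735 RPKM.

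Most of the replication and G1/S genes tested were lower after OTI-611, but not all roles moved as a whole. The licensing factors, the polymerases and primase, the clamp and its loader, and the E2F factors each held 1 gene that rose. Of the 54 tested, 43 fell, 4 rose and 7 did not pass a limma adjusted p of 0.05, and the median log2 difference, OTI-611 minus DMSO on the log2(value + 1) scale, was -0.41. Over all 11978 genes tested, 37.3% fell and 27.8% rose, and the median was -0.054. Without DMSO 1, 44 fell and 4 rose, against 42.4% and 26.3% of all genes. After quantile normalization 42 fell and 4 rose, against 34.4% and 34.1%, and after scaling to the median log ratio 42 fell and 4 rose, against 33.2% and 33.3%. The 3 OTI-611 libraries all lay below the 3 DMSO libraries in 42 of the 54 and all above them in 4, against 39.7% and 30.5% of all genes tested. Separated groups were thus common in the whole table, and those given below for single genes are to be read against these shares. Falls of at least 0.5 were found in 19 of the 54 and in 14.5% of all genes, and rises of that size in 1 of the 54 and in 8.28% of all genes. The 43 members with a mean of at least 10 RPKM gave 35 falls and 3 rises, against 40.5% and 36.1% of the 5557 genes at that level. Summed over the 55 genes, the level was 1630 ± 12 RPKM in OTI-611 libraries and 2250 ± 20 RPKM in DMSO libraries (SD, n = 3 each). In RNA from whole cultures, fewer cells in S phase and less of these RNAs in each cell cannot be told apart.

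**Figure D1:**
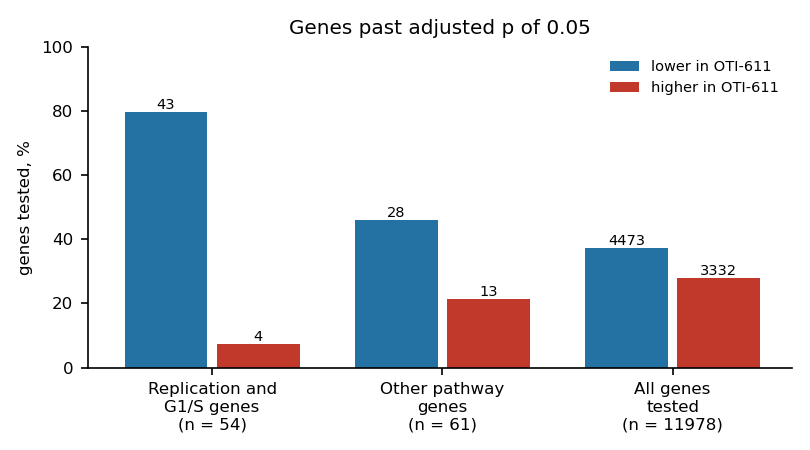
Share of tested genes past a limma adjusted p of 0.05 (y axis, percent) among replication and G1/S genes, other genes of the pathway and all genes, with blue bars for genes lower and red bars for genes higher in OTI-611 libraries and the number of genes above each bar. Falls outnumber rises by 43 to 4 in the replication and G1/S genes, by 28 to 13 in the other pathway genes and by 4473 to 3332 in the whole table.

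The promoters of the members were read for the letters that E2F factors are known to prefer. RefSeq promoters (GRCh38.p14) were matched by symbol for 46 of the 55 genes, and the 250 bases before each start were searched on both strands for TTTCCCGC, TTTCGCGC, TTTGCCGC and TTTGGCGC. At least 1 of these words stood in 16 of the 46 (34.8%). The share was 3.48% of the 22199 promoters of protein-coding genes and 4.69% of the 8820 promoters of genes tested. Of the 46, 3 (6.52%) held 2 or more, against 0.171% of the protein-coding promoters. Most members are known E2F targets and were picked by role, so this excess cannot tell anything about OTI-611. The word CCAAT, which the factor NF-Y is known to bind, stood in 56.5% of the 46 and in 32.7% of protein-coding promoters. Of the members that fell, 13 of 34 held an E2F-type word, of those that rose 1 of 4 (CDT1), and of those that did not pass 1 of 7. The members with no matched promoter, among them MCM4 (-0.87) and GINS4 (-0.83), all fell. The 34 are therefore only part of the 43 that fell. Among the 8820 tested genes with a promoter matched by symbol, such a word did not go with a fall. Of the 414 that held one 37.7% fell, against 38.4% of the 8406 that did not. Tested genes with no matched promoter are not covered by this comparison. A match is a description of letters and not a binding site, and genes with no match are not shown to lack one. The stretches below are those of all 6 members that fell, hold such a word and have at most 30 bases of a GENCODE v29 exon in the stretch, a limit that left out CDT1, the member with such a word that rose. Each is printed 5′ to 3′ on its gene's strand with the words in capitals. They show where the words lie, and the MCM6 stretch holds 4 words in 2 overlapping pairs.
PCNA, minus strand, chr20:5126644-5126711: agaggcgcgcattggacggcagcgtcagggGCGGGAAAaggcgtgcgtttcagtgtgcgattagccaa
MCM3, minus strand, chr6:52284879-52284946: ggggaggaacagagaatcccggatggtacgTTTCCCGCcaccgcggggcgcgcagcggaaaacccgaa
MCM6, minus strand, chr2:135876492-135876625: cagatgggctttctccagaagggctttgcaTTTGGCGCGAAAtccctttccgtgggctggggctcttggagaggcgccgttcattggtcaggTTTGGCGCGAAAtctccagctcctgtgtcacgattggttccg
POLA1, plus strand, chrX:24693751-24693818: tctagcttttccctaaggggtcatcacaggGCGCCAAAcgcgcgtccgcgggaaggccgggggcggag
POLE, minus strand, chr12:132687343-132687390: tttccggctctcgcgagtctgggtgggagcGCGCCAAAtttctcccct
E2F1, minus strand, chr20:33686386-33686448: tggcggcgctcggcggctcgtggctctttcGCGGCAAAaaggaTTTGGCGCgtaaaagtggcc

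The MCM helicase, the ring of MCM2 to MCM7 that unwinds DNA ahead of the fork, fell as a whole, but its subunits fell unequally. MCM4 stood at 49.6, 49.1 and 49.9 RPKM in OTI-611 libraries, against 92, 93.5 and 89.5 in DMSO libraries, a log2 difference of -0.87 ± 0.026 (SE, limma adjusted p = 1.81e-08). MCM3, whose promoter stretch is printed above, had 78.3, 80.6 and 84.9 RPKM with OTI-611, against 144, 148 and 147 with DMSO (-0.84 ± 0.032, limma adjusted p = 6.80e-08). For MCM6 the values were 37.2, 36.3 and 36 RPKM with OTI-611 and 57, 58.7 and 57.0 with DMSO (-0.64 ± 0.028, limma adjusted p = 1.33e-07). The groups were far apart for each of these subunits. MCM7 (-0.46), MCM5 (-0.35) and MCM2 (-0.23) fell less, and their groups did not overlap either. The 6 subunits summed to 311 ± 6.7 RPKM with OTI-611 and to 484 ± 5.1 with DMSO (SD, n = 3 each). MCM3, the most abundant subunit per length, made up 26.1% ± 0.66 of that sum with OTI-611 and 30.2% ± 0.18 with DMSO (SD, n = 3 each). MCM2, the least abundant, made up 9.87% ± 0.36 with OTI-611 and 7.46% ± 0.13 with DMSO (SD, n = 3 each). The ratio of the highest to the lowest subunit was 2.65 ± 0.086 with OTI-611 and 4.05 ± 0.053 with DMSO (SD, n = 3 each), so the 6 levels lay closer together after the compound. Of the exon bases of MCM2, 23.6% also lie in exons of other genes, so its value is less certain.

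**Figure D2:**
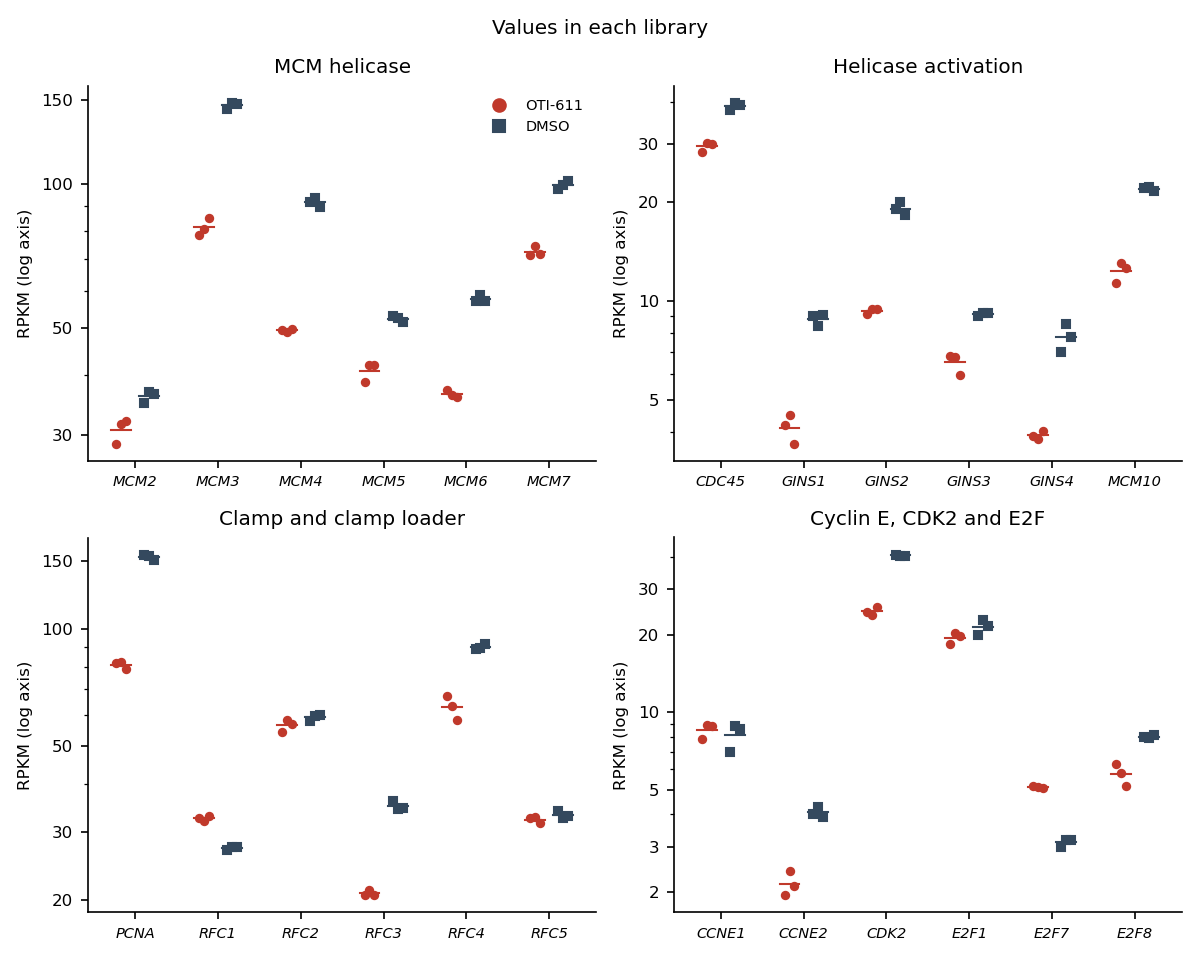
RPKM in each library (y axes, log scale) for 24 genes in 4 groups of roles, with red circles for the 3 OTI-611 libraries, dark squares for the 3 DMSO libraries and lines for group means; the first square of each gene is DMSO 1, given in whole numbers. All MCM and helicase activation genes sit lower with OTI-611, RFC1 and E2F7 sit higher, and CCNE1, RFC5, RFC2 and E2F1 overlap.

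The factors that turn the loaded ring into an active helicase had the lowest median of any role: all 6 fell, their log2 differences centred on -0.81, and OTI-611 levels of 3 of the 4 GINS genes were under 50% of those in DMSO 2 and DMSO 3. GINS2 had 9.13, 9.45 and 9.47 RPKM in OTI-611 libraries, against 19, 19.9 and 18.2 in DMSO libraries (-0.95 ± 0.044 SE, limma adjusted p = 1.80e-07). GINS1 had 4.20, 4.51 and 3.69 RPKM with OTI-611, against 9, 8.43 and 9.07 with DMSO (-0.94 ± 0.069, limma adjusted p = 2.97e-06). No OTI-611 library came near a DMSO library for either gene. GINS4 reached 48.0% of the DMSO 2 and DMSO 3 mean (-0.83) and GINS3 reached 70.8% (-0.43), and both fell. MCM10, which helps to start the unwinding at origins, stood at 11.3, 13.0 and 12.6 RPKM with OTI-611 and at 22, 22.2 and 21.5 with DMSO (-0.79 ± 0.050, limma adjusted p = 1.19e-06). CDC45, the partner of GINS on the ring, fell by 0.40 on the log2 scale. GINS4 shares 23.6% of its exon bases with other genes and GINS3 shares 10.9%.

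In the origin recognition complex, which marks where replication can start, 4 of the 5 member genes fell and ORC5 did not pass, against 37.3% of all genes lower. ORC4, a further subunit that is not among the 55, did not pass either, at 0.0093 on the log2 scale (95% interval -0.14 to 0.16, limma adjusted p = 0.909). ORC3 had 11.8, 11.0 and 11.3 RPKM in OTI-611 libraries, against 20, 20.9 and 20.9 in DMSO libraries (-0.80 ± 0.040 SE, limma adjusted p = 3.09e-07). ORC1, the subunit whose level is known to swing with the cell cycle, had 10.7, 10.7 and 9.93 RPKM with OTI-611, against 18, 18.4 and 18.1 with DMSO (-0.74 ± 0.041, limma adjusted p = 5.52e-07). Both genes were lower in every OTI-611 library. ORC6 had 33.5, 32.6 and 31.3 RPKM with OTI-611 and 42, 42.9 and 42.6 with DMSO (-0.38 ± 0.032, limma adjusted p = 6.88e-06), and ORC2 fell by 0.32 on the log2 scale. ORC5 stood at 21.8, 19.8 and 20.2 RPKM with OTI-611 and at 23, 21.0 and 21.7 with DMSO, groups that overlap, and its log2 difference of -0.082 had a 95% interval of -0.19 to 0.02 (limma adjusted p = 0.154). Without OTI-611 1 it passed, at -0.12 (limma adjusted p = 0.0457).

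The licensing factors were split. CDT1, which brings the MCM ring to the origin, was one of the 4 members that rose, with 28.3, 30.9 and 30.6 RPKM in OTI-611 libraries, against 24, 25.4 and 25 in DMSO libraries (0.26 ± 0.041 SE, limma adjusted p = 4.07e-04). Its inhibitor geminin, encoded by GMNN, fell, with 51.6, 52.6 and 52.9 RPKM with OTI-611, against 63, 63.2 and 62.5 with DMSO (-0.26 ± 0.025, limma adjusted p = 1.45e-05). CDC6, the ATPase that works with CDT1, also fell, with 25, 27.2 and 26.7 RPKM with OTI-611, against 29, 31.4 and 29.9 with DMSO (-0.19 ± 0.042, limma adjusted p = 0.00318). The groups did not overlap for any of the 3 genes, although the gap was narrow for CDC6. Of all genes tested, 39.7% were separated and lower and 30.5% were separated and higher. The ratio of CDT1 to GMNN within a library was 0.549, 0.588 and 0.578 with OTI-611, against 0.381, 0.402 and 0.400 with DMSO. This ratio and the other ratios between members were chosen after the values were seen and are given with no test.

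The polymerases, which copy the strands, and the primase, which starts them, moved less than the helicase, with 5 of 9 genes lower, 1 higher and a median of -0.18, against 37.3% lower, 27.8% higher and a median of -0.054 over all genes tested. POLE2, a small subunit of polymerase epsilon, had 42.7, 42.2 and 40.5 RPKM in OTI-611 libraries, against 60, 54.1 and 57.1 in DMSO libraries (-0.44 ± 0.040 SE, limma adjusted p = 1.12e-05). POLD1, the catalytic subunit of polymerase delta, had 12.7, 14.5 and 15.4 RPKM with OTI-611, against 21, 24.1 and 21.4 with DMSO (-0.61 ± 0.071, limma adjusted p = 5.80e-05). Its partner POLD3 had 12.1, 13.8 and 12.6 RPKM with OTI-611 and 18, 18.1 and 16.7 with DMSO (-0.43 ± 0.053, limma adjusted p = 9.05e-05). These genes showed no overlap between the groups. POLA1 (-0.39) and POLE (-0.18), the catalytic subunits of polymerases alpha and epsilon whose promoter stretches are printed above, fell too. PRIM1, the catalytic primase subunit, rose, with 27.6, 26.9 and 26.7 RPKM with OTI-611, against 24, 23.2 and 23.0 with DMSO (0.20 ± 0.032, limma adjusted p = 4.43e-04), although 21.6% of its exon bases are shared with other genes. PRIM2, the other primase subunit, differed by -0.051 (95% interval -0.15 to 0.05) and POLD2, the delta subunit beside POLD1, by -0.020 (-0.10 to 0.06), and neither passed. POLA2, the regulatory subunit beside POLA1, did not pass at -0.16 (-0.34 to 0.02, limma adjusted p = 0.108) but fell without DMSO 1, at -0.23 (limma adjusted p = 0.0125). Its levels of 3.70 to 4.12 RPKM with OTI-611 and of 4 to 4.92 with DMSO are low enough for dropped decimals to weigh, and 35.1% of its exon bases are shared with other genes.

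**Figure D3:**
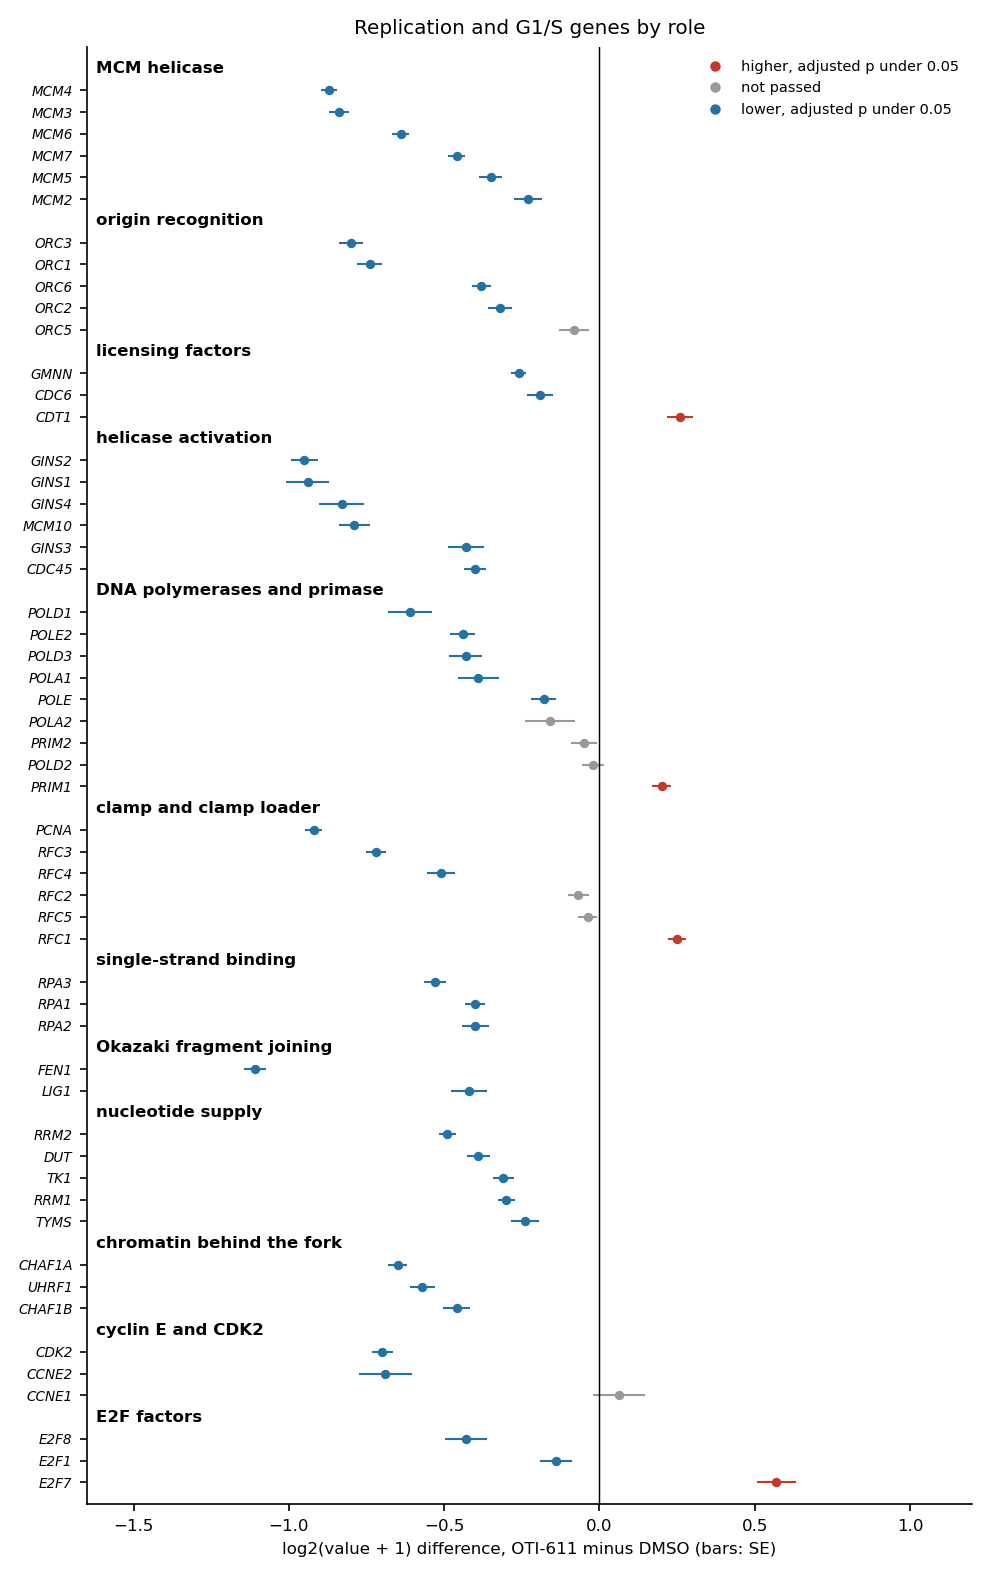
Log2(value + 1) difference, OTI-611 minus DMSO (x axis), for the 54 tested genes by role (rows), with bars of 1 SE, blue for genes lower and red for genes higher at a limma adjusted p under 0.05 and grey for the rest. FEN1 lies furthest left at -1.11 and E2F7 furthest right at 0.57, and roles such as the clamp loader hold blue, grey and red points.

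PCNA, the ring that holds polymerases on DNA, fell with 81.7, 82.4 and 78.9 RPKM in OTI-611 libraries, against 156, 155 and 151 in DMSO libraries (-0.92 ± 0.027 SE, limma adjusted p = 1.71e-08). PCNA (ENSG00000132646) lies on chromosome 20 from 5114953 to 5126626 and shares no exon bases. It was the member with the smallest p, and its OTI-611 level was 53.0% of that in DMSO 2 and DMSO 3. The 5 subunits of the loader that opens this ring went different ways. RFC3 had 20.6, 21.3 and 20.7 RPKM with OTI-611, against 36, 34.5 and 34.6 with DMSO (-0.72 ± 0.032, limma adjusted p = 1.56e-07). RFC4 had 67.2, 63.6 and 58.3 RPKM with OTI-611 and 89, 89.3 and 91.7 with DMSO (-0.51 ± 0.046, limma adjusted p = 1.09e-05). Both small subunits fell with no overlap. RFC1, the large subunit, rose, with 32.7, 32.0 and 33.1 RPKM with OTI-611, against 27, 27.5 and 27.5 with DMSO (0.25 ± 0.029, limma adjusted p = 6.00e-05). RFC2 (-0.068, 95% interval -0.14 to 0.01) and RFC5 (-0.038, -0.11 to 0.03) did not pass, though without OTI-611 2 RFC2 fell by 0.092 (limma adjusted p = 0.0435). RFC5 shares 10.6% of its exon bases with other genes. Within a library, RFC1 stood at 1.56 ± 0.052 times RFC3 with OTI-611 and at 0.781 ± 0.027 times RFC3 with DMSO (SD, n = 3 each), so the order of these subunits was turned round.

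All 3 subunits of RPA, which coats single-stranded DNA, fell by similar amounts. RPA3 had 21.2, 20.6 and 22.0 RPKM in OTI-611 libraries, against 31, 30.6 and 32.0 in DMSO libraries (-0.53 ± 0.036 SE, limma adjusted p = 1.59e-06). RPA1 had 41.6, 39.2 and 39.5 RPKM with OTI-611, against 52, 53.6 and 53.6 with DMSO (-0.40 ± 0.032, limma adjusted p = 4.79e-06). For RPA2 the values were 38.7, 39.8 and 36.9 RPKM with OTI-611 and 51, 54.2 and 48.6 with DMSO (-0.40 ± 0.044, limma adjusted p = 3.53e-05). The groups stayed apart for each subunit. Of the enzymes that finish Okazaki fragments, FEN1, the flap nuclease, had the largest fall of all members, with 38.1, 39.3 and 41.1 RPKM with OTI-611, against 87, 89.2 and 83.9 with DMSO (-1.11 ± 0.036, limma adjusted p = 2.54e-08). Its OTI-611 level was 45.7% of that in DMSO 2 and DMSO 3. In GENCODE v29 on GRCh38 FEN1 (ENSG00000168496) lies on chromosome 11 from 61792637 to 61797244 and shares 8.68% of its exon bases with other genes. LIG1, the ligase that seals the remaining nick, fell less, with 7.58, 8.94 and 8.05 RPKM with OTI-611 and 11, 11.2 and 11.6 with DMSO (-0.42 ± 0.059, limma adjusted p = 1.98e-04).

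The 5 genes of nucleotide supply all fell, within a narrow band of -0.49 to -0.24. RRM2, the small subunit of ribonucleotide reductase, had 66.5, 65.7 and 69.1 RPKM in OTI-611 libraries, against 96, 95.5 and 93.1 in DMSO libraries (-0.49 ± 0.028 SE, limma adjusted p = 6.07e-07). Its partner RRM1 had 49.95, 49.92 and 52.0 RPKM with OTI-611, against 62, 63.6 and 62.3 with DMSO (-0.30 ± 0.028, limma adjusted p = 1.17e-05). DUT, which removes dUTP, had 37.8, 39.5 and 41.1 RPKM with OTI-611 and 52, 50.6 and 53.7 with DMSO (-0.39 ± 0.037, limma adjusted p = 1.42e-05). None of these groups overlapped, and 39.7% of all genes tested were likewise separated and lower. Thymidine kinase TK1 (-0.31) and thymidylate synthase TYMS (-0.24), which make thymidine nucleotides by salvage and by synthesis, fell as well. TYMS shares 46.6% of its exon bases with other genes, mostly ENOSF1, which itself fell by 0.24 on the log2 scale. RRM2 shares 20.2% and DUT 14.5%.

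Factors that rebuild chromatin on new DNA fell together. CHAF1A, the large subunit of the histone chaperone CAF-1, had 19.9, 19.8 and 19.5 RPKM in OTI-611 libraries, against 32, 31.3 and 31.2 in DMSO libraries (-0.65 ± 0.030 SE, limma adjusted p = 1.79e-07). UHRF1, which guides the maintenance of DNA methylation, had 42.0, 42.1 and 45.6 RPKM with OTI-611, against 63, 67.5 and 63.0 with DMSO (-0.57 ± 0.041, limma adjusted p = 2.56e-06). CHAF1B, the middle subunit of CAF-1, had 7.59, 8.0 and 7.88 RPKM with OTI-611 and 11, 11.0 and 11.4 with DMSO (-0.46 ± 0.044, limma adjusted p = 1.55e-05). All 3 genes were lower in each OTI-611 library than in any DMSO library, as were 39.7% of all genes tested.

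Among the kinase and cyclins that trigger S phase, CDK2 and cyclin E2 fell and cyclin E1 did not pass. CDK2 had 24.4, 23.9 and 25.7 RPKM in OTI-611 libraries, against 41, 40.5 and 40.5 in DMSO libraries (-0.70 ± 0.034 SE, limma adjusted p = 2.38e-07). It shares 16.8% of its exon bases with other genes. CCNE2 had 1.94, 2.40 and 2.11 RPKM with OTI-611, against 4, 4.29 and 3.92 with DMSO (-0.69 ± 0.085, limma adjusted p = 8.38e-05), which rests on an estimated 318 to 395 reads per OTI-611 library. CCNE2 shares 37.1% of its exon bases with other genes, mostly INTS8, which also fell (-0.55), and since strand use in counting is not known, reads of these neighbours may be mixed. CCNE1 stood at 7.83, 8.94 and 8.82 RPKM with OTI-611 and at 7, 8.84 and 8.61 with DMSO, overlapping groups, with a log2 difference of 0.063 (95% interval -0.13 to 0.25, limma adjusted p = 0.535) that was -0.031 without DMSO 1.

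The E2F factors showed the only rise above 0.5 among the members. E2F7, an atypical E2F known to repress replication genes, had 5.16, 5.13 and 5.09 RPKM in OTI-611 libraries, against 3, 3.17 and 3.18 in DMSO libraries (0.57 ± 0.063 SE, limma adjusted p = 3.63e-05), which was 161% of the mean of DMSO 2 and DMSO 3. E2F7 (ENSG00000165891) lies on chromosome 12 from 77021247 to 77065580 and shares no exon bases. E2F8, its close relative and also a repressor, fell, with 6.28, 5.78 and 5.15 RPKM with OTI-611, against 8, 7.95 and 8.17 with DMSO (-0.43 ± 0.067, limma adjusted p = 3.69e-04). These paralogs changed in opposite directions and their levels came closer together: E2F7 stood at 0.899 ± 0.084 times E2F8 with OTI-611 and at 0.388 ± 0.012 times with DMSO (SD, n = 3 each). The activator E2F1 had 18.4, 20.3 and 19.7 RPKM with OTI-611 and 20, 22.8 and 21.7 with DMSO, with overlapping groups. Its difference of -0.14 ± 0.053 passed narrowly (limma adjusted p = 0.0490), and the call was lost without any single library other than DMSO 1 or OTI-611 2, at limma adjusted p of 0.0763 to 0.173. E2F2, another activator, was listed at 0 in all OTI-611 libraries and in DMSO 1 and DMSO 2, and at 0.0237 RPKM in DMSO 3, about 4 estimated reads, so no difference was detectable at this depth.

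**Figure D4:**
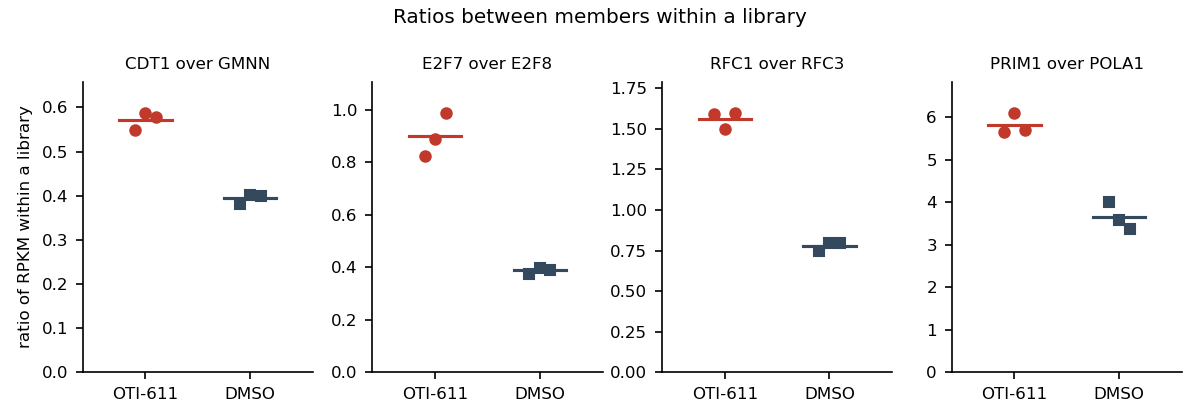
Ratio of the RPKM of 2 members within each library (y axes, from 0), with red circles for OTI-611 libraries, dark squares for DMSO libraries and lines for group means. CDT1 over GMNN, E2F7 over E2F8, RFC1 over RFC3 and PRIM1 over POLA1 are higher in every OTI-611 library, the last at 5.83 ± 0.25 with OTI-611 and 3.66 ± 0.32 with DMSO (SD, n = 3 each).

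A further 64 genes of replication and cell cycle entry were looked up in the table, and the 61 of these that were tested lay nearer to the whole table: 28 were lower, 13 were higher and 20 missed the threshold, against 37.3% lower and 27.8% higher of all genes tested. Their median log2 difference was -0.11, against -0.054 over all genes. SKP2, which marks CDK inhibitors for destruction, had 7.20 ± 0.27 RPKM with OTI-611 and 18.2 ± 0.70 with DMSO (SD, n = 3 each), a log2 difference of -1.23, larger than that of any of the 55. Other falls among those with the smallest p were the nucleotide hydrolases DCTPP1 (-0.52) and SAMHD1 (-0.98), cyclin D3 gene CCND3 (-0.99) and TOPBP1 (-0.42), which helps to fire origins. DCTPP1 shares 42.1% of its exon bases with other genes and SAMHD1 shares 10.3%, so their values are less certain. Among the rises, topoisomerase gene TOP1 had 28.1 ± 2.0 RPKM with OTI-611 and 17.1 ± 0.23 with DMSO (SD, n = 3 each; 0.68), and the CDK inhibitor gene CDKN1A (0.53), the fork protection gene TIMELESS (0.30), E2F4 (0.31), FZR1 (0.30), an activator of the anaphase-promoting complex, and POLE4 (0.26) rose as well. By role, 6 of 8 further nucleotide enzymes and 4 of 6 histone deposition and methylation genes fell. In origin firing 3 of 9 genes fell and 1 rose, and in fork protection 3 of 7 fell and 1 rose. Among 8 further polymerase and nuclease subunits 3 fell and 3 rose. The median log2 difference was -0.05 for origin firing, -0.05 for fork protection and -0.02 for these subunits. Of 23 cell cycle entry genes 9 fell and 7 rose, near the whole-table shares of 37.3% and 27.8%. Maintenance methyltransferase DNMT1 (-0.021), cyclin A2 gene CCNA2 (0.020) and the histone messenger binding gene SLBP (-0.037), chosen after their values were seen, did not pass.

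Across the 54 tested members, the level with DMSO was set against the log2 difference, but this cannot show whether they are related. The difference itself subtracts the DMSO values, and its scale understates the change of low genes. A correlation can be raised or hidden by these alone, so no conclusion is drawn from the values below. Over genes, which are not independent replicates and share the same libraries, Pearson's r between the log2 level in DMSO 2 and DMSO 3 and the log2 difference was -0.24 and Spearman's rho -0.15. The abundant PCNA (-0.92) and the scarce GINS1 (-0.94) had similar differences on this scale. Their OTI-611 levels were 53.0% (PCNA) and 47.2% (GINS1) of those in DMSO 2 and DMSO 3. Of the 4 genes that rose, RFC1, PRIM1 and CDT1 averaged 23.4 to 27.3 RPKM with DMSO and E2F7 averaged 3.12.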

How the data were processed

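The authors deposited 1 table of human genes with 1 column per library and no named unit. Per the labels' protocols, messenger RNA was amplified by the Geo-seq method and tagged by transposition. No molecular identifiers are named. Per the submitters' processing notes, the tools were TopHat2 2.0.9, HTSeq, Cufflinks 2.1.1, CASAVA 1.7 and FastQC, without roles, and the build mm10, which is a mouse build although all 32692 gene IDs are human. The build behind the values is therefore not established. The authors deposited 5 columns taken as RPKM, which FPKM would resemble, and DMSO 1 in whole numbers, treated as a score.

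Genes averaging 1 or more were fitted on the log2(value + 1) scale with limma 3.58.1 in R 4.3.3 (group as the only term, mean-variance trend, two-sided, Benjamini-Hochberg over all genes tested, threshold 0.05). This scale understates the change of low genes. The test was checked on simulated data. Depth came from the steps of low values, with GENCODE v29 exon lengths, of which 51.7% to 53.1% were whole reads within 0.05. Exon sharing is also from GENCODE v29, and strand use in counting is not given in the sources used here. The count test planned for counts was not run. The members, lists and tests were chosen with earlier results of these data known. Values by library are printed for the 3 members of each role with the smallest p and for all that rose. Of the other pathway genes, the 6 with the smallest p in each direction were chosen to be named; 1 of these and 1 marker gene are not reported here.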

Additional observations from a re-analysis of the deposited data

How the results depend on the processing

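Over 15 other settings, no called member changed direction, and 50 of the 54 tested members kept their side of the threshold wherever they were tested. E2F1, POLA2, ORC5 and RFC2 did not. The counts of the 43 falls and 4 rises stayed at 42 to 44 and at 3 to 4 (3 with a minimum mean of 5, which E2F7 does not reach), and all pathway and whole-table counts stayed within 1.5 times. The median of the members was -0.45 with a pseudocount of 0.1 and with all libraries truncated to whole numbers, -0.38 after quantile normalization and -0.36 after scaling to the median log ratio, each moved by more than its spread between libraries of 0.022. Leaving out each library gave a median of -0.43 to -0.40. E2F1 lost its call in 10 settings, including quantile normalization (limma adjusted p = 0.135) and median log ratio scaling (0.174), and the cause was not tested. With the replicate block, 43 members fell and 4 rose, 3327 genes of the table rose and 4429 fell. Correlations between deviations of libraries with the same number were 0.019, 0.00041 and -0.058, so the numbers were not taken to pair libraries. The count-based alternative was not run, since the table holds no counts. Depth limits E2F2, and dropped decimals in DMSO 1 limit genes of a few RPKM.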

Other observations

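The microRNA genes MIR25, MIR93 and MIR106B, known to lie within MCM7, were listed beside it. MIR25 had 7.34, 10.2 and 8.51 RPKM with OTI-611, against 10, 18.2 and 16.9 with DMSO. MIR106B had 0.653, 2.28 and 1.94 RPKM with OTI-611 and 2, 3.97 and 3.38 with DMSO. MIR93 had 1.00, 3.01 and 1.32 RPKM with OTI-611 and 1, 6.51 and 2.31 with DMSO, with wide overlap. As listed, OTI-611 2 also lay above DMSO 1 for MIR25 and MIR106B, although DMSO 1 lacks decimals. A few reads on genes this short give a high RPKM, so these values are uncertain, were looked up after the data were seen and were given no test. The 6 pseudogenes in the table named after DUT or RRM2 had at most 1 RPKM in any library.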
